A study of Mus musculus with 5 samples.

Results

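The genes described here encode 10 proteins of branched-chain amino acid (BCAA) catabolism, chosen by name as Bcat2, Bckdha, Bckdhb, Dbt, Bckdk, Ppm1k, Ivd, Mccc1, Pcca and Hibadh. Values were given for 17015 genes. Of these, 12148 had a mean of at least 0.5 FPKM (fragments scaled to transcript length and a factor per library) and were tested. All 10 BCAA genes were among those tested. RNA-seq was performed on the tibialis anterior (TA), a fast-twitch leg muscle, of 8-week-old sedentary male mice. The libraries came from 3 mice labelled WT control and 2 labelled skmNrip1-/-, and the comparison asks how gene expression differs in muscle in which Nrip1 was targeted. In the skmNrip1-/- line, loxP-flanked Nrip1 alleles (Nrip1 fl/fl) were combined with a Cre recombinase driven by the myogenin promoter, and the WT controls were Cre-negative littermates. Myogenin is active in muscle cells, so other cells of the TA are not expected targets of this Cre.

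Leucine, isoleucine and valine are essential amino acids, and skeletal muscle is a major site of the first step of their breakdown, a transamination to branched-chain 2-oxo acids. The committed step follows in the mitochondrial matrix, where the branched-chain 2-oxo acid dehydrogenase (BCKDH) complex, built from E1, E2 and E3 components, decarboxylates the 2-oxo acids to acyl-CoA. A dedicated kinase inactivates the complex by phosphorylating E1, a dedicated phosphatase reactivates it, and separate enzymes then carry the leucine, isoleucine and valine products to acetyl-CoA, acetoacetate or, through propionyl-CoA, succinyl-CoA.

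The gene-level value of the targeted gene was higher, not lower, in the libraries labelled skmNrip1-/-. Nrip1, which encodes the transcriptional corepressor RIP140, was at 4.64, 7.69 and 6.55 FPKM in the WT controls and at 25.3 and 22.5 FPKM in the libraries labelled skmNrip1-/-, a log2 fold change of 1.94 (SE 0.21, adjusted p = 0.0261 in limma with Benjamini-Hochberg adjustment). The table gives 1 value per gene, so reads from the deleted part of Nrip1 and from the rest cannot be told apart, and every direction below is between libraries as labelled. Fast-muscle transcripts matched the labelled tissue, with Myh4, the myosin heavy chain of type 2B fibers, at 6416 to 8478 FPKM and Myh7, its slow counterpart, at 0.449 to 1.72 FPKM over the 5 libraries. The share of all FPKM on mitochondrial DNA was 45.4% to 50.7% in WT controls and 58.6% to 60.9% in the libraries labelled skmNrip1-/-. The depth of the libraries is unknown because the values are FPKM.

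A gene was called if its fold change reached 1.2 and its adjusted p did not exceed 0.05. None of the 10 BCAA genes met both, which 0.453% of the tested genes did (55 of 12148, limma). At an unadjusted p of 0.05 or less, 3 of the 10 were higher in the libraries labelled skmNrip1-/- (Bckdha, Hibadh and Dbt), beside 6.57% of all tested genes. In 7 of the 10, both libraries labelled skmNrip1-/- lay above every WT control, which was so for 15.8% of all tested genes, and the other 3 overlapped. All 10 had a log2 fold change above 0 on the deposited scaling, beside 6064 of 12148 tested genes. After rescaling to TPM (transcript shares with the same sum in each library) 4 of the 10 did, beside 1492 of 11913 tested genes. The median of the 10 was 0.24 on the deposited scaling, beside -0.00 for all tested genes, and -0.06 after TPM rescaling, beside -0.29 for all tested genes. All 10 lay above the median of all tested genes under both scalings. TPM multiplies all genes of a library by the same factor, so this comparison was nearly fixed by the scaling before it. The TPM sum includes the mitochondrial transcripts. With a fixed sum over nuclear-encoded genes, chosen after seeing the data, all 10 were above 0. Their median was then 0.31, beside 0.07 for all tested genes.

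The summed FPKM of the 10 genes was 444.2, 455.6 and 422.5 in the WT controls and 569.6 and 528.0 in the libraries labelled skmNrip1-/-. Erythroid markers were also higher on the deposited scaling. All 5 had a log2 fold change above 0, 3 had an unadjusted p of 0.05 or less in limma, their summed FPKM was 511 to 764 in WT controls and 827 to 996 in the libraries labelled skmNrip1-/-, none was at 0, and none was called. The part of blood RNA in the BCAA values was not tested, and that of the mitochondrial share was not tested beyond the scalings given above. In a bulk sample, fewer cells of a type and less RNA per cell cannot be told apart. Slow-muscle markers differed in direction. Myl2 was at 2.03, 1.85 and 9.68 FPKM in WT controls and at 42.1 and 33.6 FPKM in the libraries labelled skmNrip1-/-, whereas Myl3, most of the summed level, was at 89.6, 124.4 and 285.3 against 54.1 and 71.3 FPKM, and neither was called. The summed slow-muscle, endothelial, macrophage, Schwann cell, fibroblast, liver and adipocyte markers overlapped between the groups. Fabp4 made up most of the adipocyte sum, at 120 to 187 FPKM over the 5 libraries beside 0.627 to 1.35 for Adipoq. The summed fast-muscle markers were at 48395 to 62754 FPKM in WT controls and 42303 to 43822 FPKM in the libraries labelled skmNrip1-/-. Acta1 and Ckm were the largest parts of that sum. In Acta1, Ckm and Actn3 (log2 fold change -0.77) both libraries labelled skmNrip1-/- lay below every WT control, as in 14.4% of all tested genes. Myh1 (0.05), Myh4 (-0.21) and Pvalb (-0.22) overlapped, and none of the 6 was called.

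**Figure D1:**
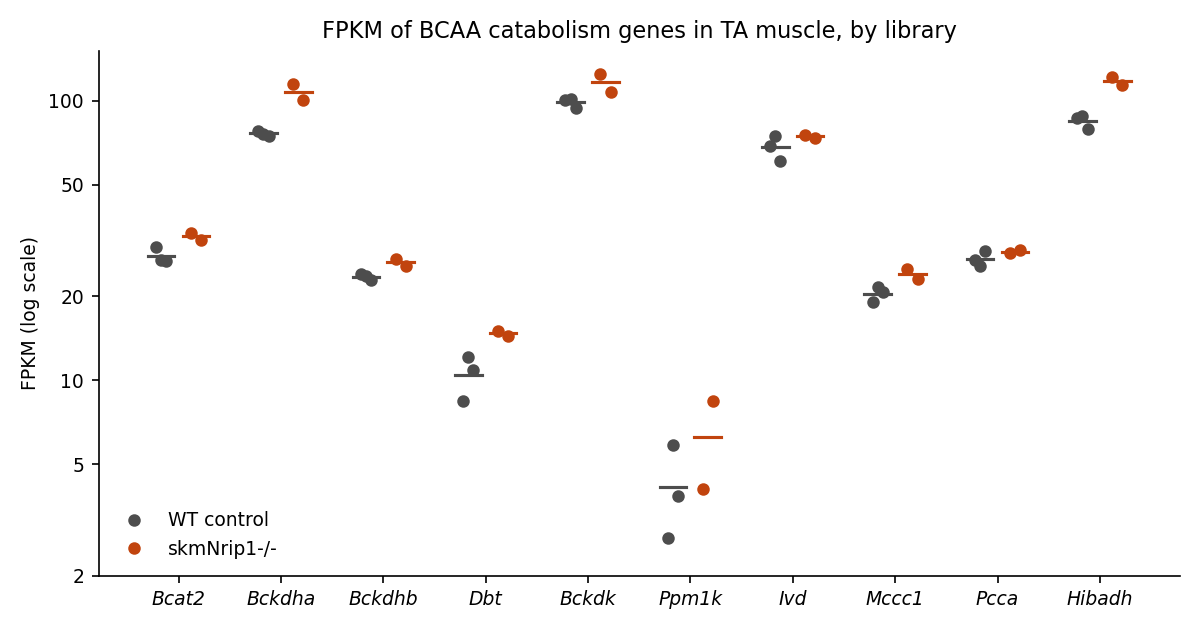
FPKM on a log axis of each of the 10 BCAA genes in every library. Points are libraries, 3 WT control and 2 labelled skmNrip1-/-, and horizontal lines are group means. The groups overlap in Ppm1k, Ivd and Pcca and do not overlap in the other 7 genes. On the TPM scale the log2 fold changes of Bcat2, Bckdhb, Bckdk, Ivd, Mccc1 and Pcca are below 0. On that scale 1492 of 11913 tested genes are above 0.

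Bcat2 encodes the mitochondrial branched-chain aminotransferase, the enzyme of the first step in muscle. Its level was 29.9, 27.0 and 26.8 FPKM in WT controls and 33.7 and 31.6 FPKM in the libraries labelled skmNrip1-/-. The groups did not overlap, but the log2 fold change of 0.23 (95% confidence interval -0.02 to 0.48, adjusted p = 0.467 in limma) did not pass the test and was -0.07 after TPM rescaling. Bcat1, the cytosolic form, was at 0.0498 to 0.404 FPKM over the 5 libraries, under the minimum for testing.

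Among the components of BCKDH, log2 fold changes ran from 0.17 for the E1 beta subunit to 0.51 for E2. Bckdha, the E1 alpha subunit that carries the phosphorylation sites, was at 77.9, 76.2 and 74.8 FPKM in WT controls and at 114.9 and 100.4 FPKM in the libraries labelled skmNrip1-/-. Both of these libraries lay above all WT controls, 1.41-fold on average. The log2 fold change was 0.49 (SE 0.11, 95% confidence interval 0.24 to 0.74, unadjusted p = 0.00261, adjusted p = 0.156 in limma), and 0.19 after TPM rescaling (unadjusted p = 0.156).

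Bckdhb, the E1 beta subunit, which forms the E1 tetramer with the alpha subunit, was at 24.0, 23.5 and 22.8 FPKM in WT controls and at 27.1 and 25.7 FPKM in the libraries labelled skmNrip1-/-. Its groups did not overlap either, by a smaller margin. The log2 fold change was 0.17 (SE 0.10, adjusted p = 0.568 in limma) on the deposited scaling and -0.13 after TPM rescaling. Dbt, the E2 core that transfers the acyl group to coenzyme A, was at 8.40, 12.1 and 10.9 FPKM in WT controls and at 15.0 and 14.4 FPKM in the libraries labelled skmNrip1-/-. The lowest WT control stood apart from the other two, and the groups did not overlap. For Dbt the log2 fold change was 0.51 (SE 0.17, 95% confidence interval 0.11 to 0.90, adjusted p = 0.313 in limma), and 0.21 after TPM rescaling (unadjusted p = 0.355). Without WT control replicate 1, the lowest, it was 0.36. Dld, the E3 subunit that BCKDH shares with the pyruvate and 2-oxoglutarate dehydrogenases, was at 141.5, 178.0 and 151.4 FPKM in WT controls and at 219.1 and 215.3 FPKM in the libraries labelled skmNrip1-/-, a log2 fold change of 0.48 (SE 0.13, adjusted p = 0.244 in limma) that was 0.18 after TPM rescaling.

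The 2 regulators of the complex differed in level and in scatter. Bckdk, the kinase that inactivates BCKDH, was the most abundant of the 10 genes in WT controls, at 100.3, 101.3 and 93.9 FPKM, and was at 124.5 and 107.6 FPKM in the libraries labelled skmNrip1-/-. The groups did not overlap, and the log2 fold change of 0.23 (95% confidence interval -0.03 to 0.50, adjusted p = 0.478 in limma) was -0.07 after TPM rescaling and 0.13 without skmNrip1-/- replicate 1. Ppm1k, the mitochondrial phosphatase that reactivates BCKDH, was the least abundant, at 2.74, 5.84 and 3.85 FPKM in WT controls and at 4.07 and 8.46 FPKM in the libraries labelled skmNrip1-/-. The groups overlapped, and libraries of the same group differed by 2.14 times in WT controls and by 2.08 times in the libraries labelled skmNrip1-/-. For Ppm1k a log2 fold change of 0.56 was obtained (SE 0.39, 95% confidence interval -0.37 to 1.49, adjusted p = 0.648 in limma). It was 1.08 without skmNrip1-/- replicate 1 and 0.04 without skmNrip1-/- replicate 2.

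Ratios taken within a library do not depend on the scaling between libraries. Bckdk was 1.29, 1.33 and 1.26 times Bckdha in WT controls and 1.08 and 1.07 times in the libraries labelled skmNrip1-/-, a log2 difference of -0.26. Bckdha was 3.25, 3.24 and 3.28 times Bckdhb in WT controls and 4.24 and 3.91 times in the libraries labelled skmNrip1-/-, a log2 difference of 0.32. Neither ratio overlapped between groups, and each gave p = 0.1 in a two-sided exact permutation test, the smallest p that 3 against 2 libraries allow (adjusted p = 0.2 over the 4 ratios tested). Bckdk was 36.6, 17.3 and 24.4 times Ppm1k in WT controls and 30.6 and 12.7 times in the libraries labelled skmNrip1-/- (exact permutation p = 0.6, adjusted p = 0.8). The ratio of Dbt to Bckdha was 0.108, 0.158 and 0.145 in WT controls and 0.131 and 0.143 in the libraries labelled skmNrip1-/- (exact permutation p = 1, adjusted p = 1). These last 2 ratios overlapped between the groups.

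**Figure D2:**
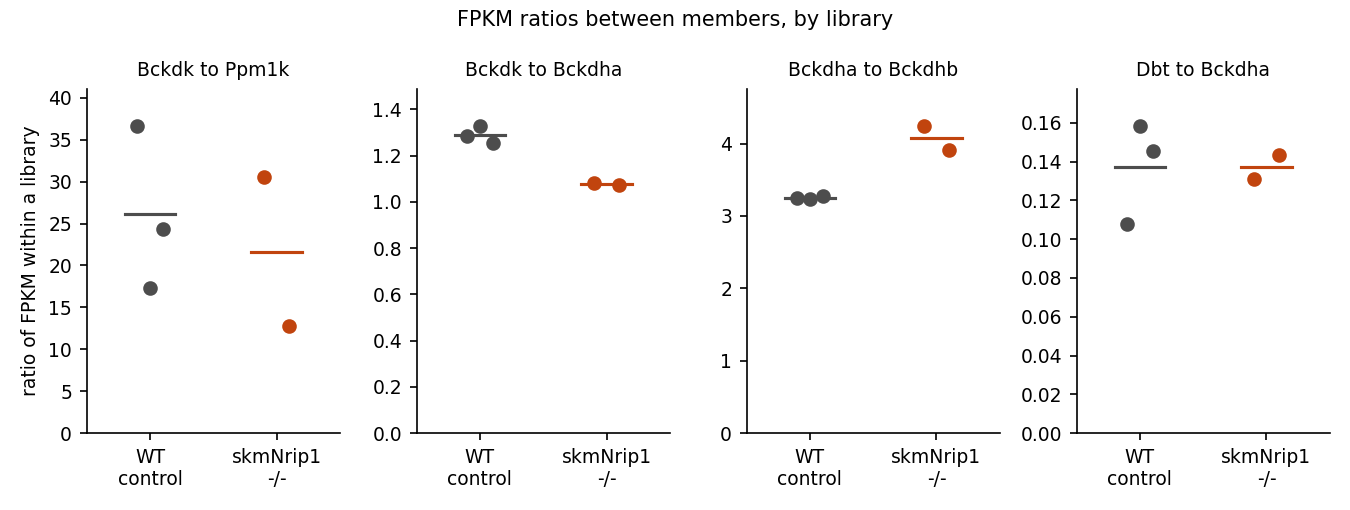
Ratio of FPKM between 2 BCAA genes within each library, on a linear axis from 0 for each of the 4 ratios. Points are libraries, 3 WT control and 2 labelled skmNrip1-/-, and lines are group means. Bckdk to Bckdha lies lower and Bckdha to Bckdhb lies higher in both libraries labelled skmNrip1-/-, and the other ratios overlap.

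In leucine breakdown, Ivd, the isovaleryl-CoA dehydrogenase, was at 68.7, 74.5 and 60.8 FPKM in WT controls and at 75.5 and 73.7 FPKM in the libraries labelled skmNrip1-/-. The groups overlapped, with a log2 fold change of 0.14 (SE 0.12, adjusted p = 0.722 in limma) that was -0.16 after TPM rescaling and 0.06 without WT control replicate 3. Mccc1, the biotin-carrying subunit of 3-methylcrotonyl-CoA carboxylase, was at 19.0, 21.5 and 20.6 FPKM in WT controls and at 25.0 and 23.0 FPKM in the libraries labelled skmNrip1-/-. The groups did not overlap, and the log2 fold change of 0.24 (SE 0.11, adjusted p = 0.462 in limma) was -0.06 after TPM rescaling. Its partner subunit Mccc2 was at 14.9, 15.7 and 14.1 FPKM in WT controls and at 18.9 and 18.2 FPKM in the libraries labelled skmNrip1-/-, a log2 fold change of 0.31 (SE 0.10, adjusted p = 0.317 in limma) that was 0.016 after TPM rescaling.

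In valine breakdown, Hibadh, the 3-hydroxyisobutyrate dehydrogenase, was at 86.4, 88.1 and 79.3 FPKM in WT controls and at 121.5 and 114.0 FPKM in the libraries labelled skmNrip1-/-. Its substrate is the pathway intermediate that leaves the mitochondrion as a free acid. Both libraries labelled skmNrip1-/- lay above all WT controls, 1.39-fold on average, with a log2 fold change of 0.48 (SE 0.10, 95% confidence interval 0.23 to 0.72, unadjusted p = 0.00281, adjusted p = 0.162 in limma). After TPM rescaling it was 0.18 (unadjusted p = 0.166). Hibadh was thereby the most abundant of the 10 genes by mean in the libraries labelled skmNrip1-/-, at 117.8 FPKM beside 116.0 for Bckdk, a difference smaller than the spread within either gene, and was the next after Bckdk in WT controls, at 84.6 ± 4.64 beside 98.5 ± 4.01 FPKM (SD, n = 3).

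Pcca, the biotin-carrying alpha subunit of propionyl-CoA carboxylase, on which the isoleucine and valine routes converge, was at 26.9, 25.6 and 28.9 FPKM in WT controls and at 28.4 and 29.1 FPKM in the libraries labelled skmNrip1-/-. The groups overlapped, with a log2 fold change of 0.08 (95% confidence interval -0.16 to 0.33, adjusted p = 0.814 in limma) that was -0.21 after TPM rescaling. It was 0.04 without WT control replicate 2 and 0.13 without WT control replicate 3. Its partner Pccb was at 68.5, 73.6 and 96.9 FPKM in WT controls and at 108.4 and 96.8 FPKM in the libraries labelled skmNrip1-/-, a log2 fold change of 0.38 (SE 0.17, adjusted p = 0.451 in limma) that was 0.08 after TPM rescaling. The groups of Pccb overlapped through 1 WT control.

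Of the 9 member promoters searched, 1, that of Hibadh, held a match to a searched motif. Hibadh lies on chr6:52546228-52640389 and Bckdha on chr7:25629946-25658981, both on the minus strand in GENCODE M21 (GRCm38). RefSeq promoter windows (GRCm38.p6), from 250 bases before to 50 bases after the RefSeq start, were found for 9 of the 10 genes and were searched on both strands for 3 motifs. The NRF1 motif (GCGCANGCGC), bound by a regulator of nuclear genes for mitochondrial proteins, was in 1 of the 9, Hibadh, and in 5.19% of all genes with a window. It was also in 3 of 15 other pathway genes with a window (Dld, Pccb and Mmaa). A single match among 9 genes is too few to set them apart from the share over all genes. The nuclear receptor half-site AAGGTCA, bound by estrogen-related receptors, was in 0 of the 9, in 0 of the 15 and in 5.38% of all genes with a window. The direct repeat AGGTCANAGGTCA, bound by receptor dimers and able to hold the half-site, was in 0 of the 9, in 0 of the 15 and in 0.0481% of all genes with a window. RIP140 does not bind DNA itself and acts on such receptors. No match says only that these letters are not in the window.

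The match in Hibadh read GCGCGTGCGC on the gene's strand, at chr6:52640357-52640366, beginning at position -66 from the RefSeq start. GENCODE M21 places the start of Hibadh farther upstream, so the match lies before the RefSeq start but within the first exon of GENCODE. The 161 bases of the RefSeq window before the GENCODE start, chr6:52640390-52640550 on the minus strand, are shown 5′ to 3′ as the stretch outside the gene in both annotations.
Hibadh: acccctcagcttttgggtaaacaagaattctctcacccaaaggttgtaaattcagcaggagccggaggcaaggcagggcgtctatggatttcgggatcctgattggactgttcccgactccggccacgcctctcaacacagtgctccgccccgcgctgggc
This stretch had 57.8% GC and 9 CpG dinucleotides. The 250 bases before the RefSeq start of Bckdha lay for the most part, 220 bases, in an exon of the GENCODE gene.

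Of 19 other genes of the pathway, 18 were tested and none was called (limma, smallest adjusted p 0.153, Echs1, the enoyl-CoA hydratase). At an unadjusted p of 0.05 or less 10 of the 18 were higher and 0 lower, beside the 6.57% of all tested genes that were higher. Both libraries labelled skmNrip1-/- lay above every WT control in 14 and below every WT control in 1, beside 15.8% and 14.4% of all tested genes, and overlapped in 3. Their median log2 fold change was 0.31 on the deposited scaling, with 16 of 18 above 0, and 0.01 after TPM rescaling, with 10 of 18 above 0. As TPM none was higher at an unadjusted p of 0.05 or less, beside 1.30% of all tested genes. Klf15 and Slc25a44 were lower at that p (adjusted p = 0.103 and 0.159 in limma). Lower values were common as TPM, where 1492 of 11913 tested genes were above 0. The share of all tested genes lower at that p was not counted, so these 2 are not set apart from it. With a fixed sum over nuclear-encoded genes the median was 0.39, with 17 of 18 above 0, beside a median of 0.07 for all tested genes. The erythroid markers and the mitochondrial share given above were higher in the same libraries. Their part in these values was not tested beyond these scalings.

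The largest log2 fold change among the 18 was that of Mmut, the mitochondrial methylmalonyl-CoA mutase that makes succinyl-CoA. Mmut was at 19.1, 26.4 and 21.1 FPKM in WT controls and at 33.1 and 32.2 FPKM in the libraries labelled skmNrip1-/-, a log2 fold change of 0.57 (SE 0.15, adjusted p = 0.244 in limma). The most negative was that of Klf15, a transcription factor known to induce BCAA catabolic genes in muscle, at 18.8, 17.6 and 22.3 FPKM in WT controls and 15.6 and 17.0 FPKM in the libraries labelled skmNrip1-/-. Klf15 was thus the gene below every WT control, with a log2 fold change of -0.26 (SE 0.13, adjusted p = 0.523 in limma) that was -0.16 without WT control replicate 3. Slc25a44, a mitochondrial BCAA carrier, had a log2 fold change of -0.02 (adjusted p = 0.968 in limma), which was -0.32 after TPM rescaling and 0.06 when each library was scaled to the same sum over nuclear-encoded genes.

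Grouped by route, a grouping made after the values were seen, members and other pathway genes differed in their medians. The 5 genes of the first steps (Bcat2, Bckdha, Bckdhb, Dbt and Dld) had a median log2 fold change of 0.48 (0.18 as TPM), and 5 of 5 did not overlap between groups, beside 30.2% of all tested genes in either direction. The 5 valine genes had a median of 0.47 (0.17 as TPM), and 5 of 5 did not overlap. The 4 isoleucine genes, Echs1 counted here as well, had a median of 0.43 (0.13 as TPM) with 3 not overlapping. The 5 leucine genes had a median of 0.24, which was -0.06 as TPM, with 4 not overlapping, and the 6 propionate genes one of 0.26, which was -0.04 as TPM, with 4 not overlapping. Differences between routes were not tested.

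**Figure D3:**
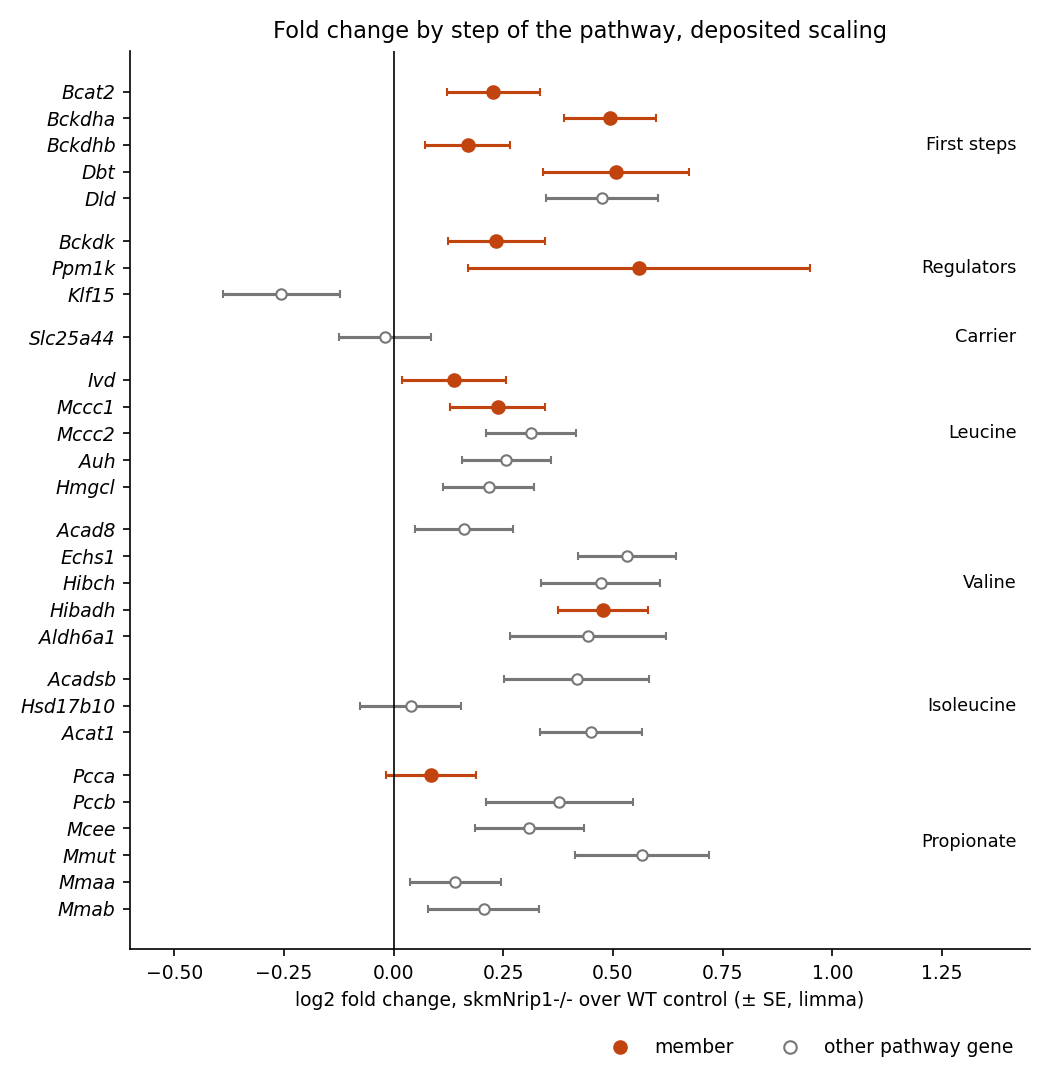
Log2 fold change (libraries labelled skmNrip1-/- over WT control) with its SE from limma on the deposited scaling, for the 10 BCAA genes (filled) and the 18 other tested pathway genes (open), ordered by step. Values run from -0.26 (Klf15) to 0.57 (Mmut), and none was called. Echs1, which also acts on isoleucine products, is drawn once, under valine. Under TPM rescaling 4 of the 10 BCAA genes and 10 of the 18 others stay above 0, beside 1492 of 11913 tested genes.

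The sister 2-oxo acid dehydrogenases, pyruvate and 2-oxoglutarate dehydrogenase, have an architecture like that of BCKDH. Of 13 of their subunits, kinases and phosphatases, 12 were tested, none was called in limma, and 6 were higher at an unadjusted p of 0.05 or less, beside 6.57% of all tested genes. As TPM 0 of the 12 were, beside 1.30% of all tested genes. The median log2 fold change was 0.34 beside 0.24 for the BCAA genes, and 0.04 beside -0.06 as TPM. As TPM the median of all tested genes was -0.29. Of the pyruvate dehydrogenase kinases, which are relatives of Bckdk, Pdk4 was at 78.2, 255.0 and 184.9 FPKM in WT controls and at 272.1 and 345.3 FPKM in the libraries labelled skmNrip1-/-. That is 0.99 on the log2 fold change scale (SE 0.46, adjusted p = 0.474 in limma), and was 0.50 without WT control replicate 1, the lowest. Pdk1 was at 0.25 and Pdk2 at 0.05 on the log2 fold change scale, both below 0 after TPM rescaling (-0.05 and -0.25), and Pdk3 was under the minimum for testing. Of the pyruvate dehydrogenase phosphatases, which like Ppm1k reactivate their complex, Pdp1 had a log2 fold change of 0.50 (SE 0.14, adjusted p = 0.247 in limma) and Pdp2 one of 0.89 (SE 0.27, adjusted p = 0.282 in limma). Pdpr, a regulatory subunit of that phosphatase, was at 20.3, 52.7 and 48.0 FPKM in WT controls and at 40.2 and 43.0 FPKM in the libraries labelled skmNrip1-/-. Its change on the log2 scale, 0.16, was -0.27 without WT control replicate 1, the lowest, and -0.14 after TPM rescaling.

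In WT controls the mean FPKM of the 10 genes, a per-length scale, ran from 98.5 for Bckdk to 4.14 for Ppm1k. Bckdk (98.5 ± 4.01), Hibadh (84.6 ± 4.64), Bckdha (76.3 ± 1.58) and Ivd (68.0 ± 6.88) were the highest (mean FPKM ± SD, n = 3). Bcat2 (27.9 ± 1.76), Pcca (27.2 ± 1.67), Bckdhb (23.5 ± 0.605), Mccc1 (20.3 ± 1.26), Dbt (10.4 ± 1.87) and Ppm1k (4.14 ± 1.57) followed. Bcat2 and Pcca were the only neighbours in this order whose WT control libraries overlapped, so their levels did not differ beyond their spread. The order of means in the libraries labelled skmNrip1-/- was the same except that Hibadh and Bckdk changed places.

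Scatter between the WT controls differed among the genes. The coefficient of variation was 2.07% for Bckdha and 2.58% for Bckdhb, lower than in most genes of like level, of which 2.47% and 5.01% respectively had a lower one. It was 38.0% for Ppm1k and 17.9% for Dbt, and 96.2% and 79.8% of genes within 2-fold of their level had a lower one. The 6 others ranged from 4.07% (Bckdk) to 10.1% (Ivd). With 3 libraries each of these values is itself imprecise.

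The other members lie on the plus strand at chr7:45570153-45589711 (Bcat2), chr9:83925145-84124240 (Bckdhb), chr3:116513070-116549981 (Dbt), chr7:127904082-127910221 (Bckdk), chr2:118861954-118882909 (Ivd) and chr14:122534324-122891100 (Pcca) of GRCm38. Ppm1k, at chr6:57506502-57535468, and Mccc1, at chr3:35959312-36000678, lie on the minus strand. Opposite-strand genes overlap exons of several members in GENCODE M21, and the library kit is not stated to keep strand. B3gnt8, a glycosyltransferase gene with a mean of 0.831 FPKM, shares 1171 bases of exon with Bckdha, and Ggact, with a mean of 10.9 FPKM, shares 241 with Pcca. Antisense genes or pseudogenes also overlap exons of Bcat2 and Mccc1. Reads of these opposite-strand pairs cannot be told apart without strand. The small nucleolar RNA gene Gm24355 lies on the same strand as Hibadh and shares 122 bases with its exons. Strand would not separate that pair.

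**Figure D4:**
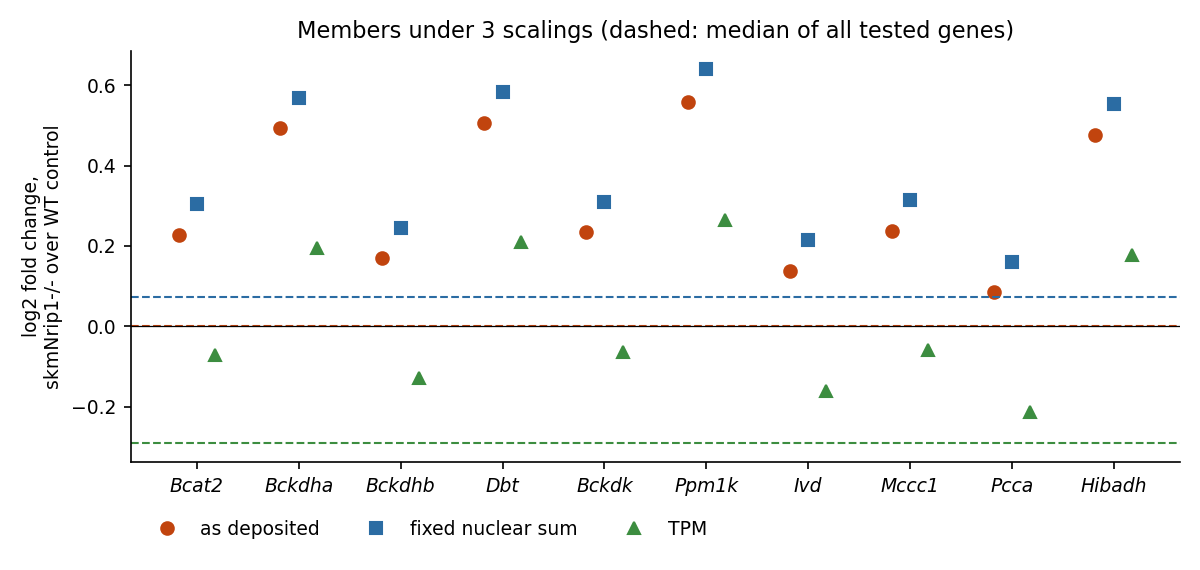
Log2 fold change (libraries labelled skmNrip1-/- over WT control) of each of the 10 BCAA genes with the FPKM as deposited, with a fixed sum over nuclear-encoded genes, and as TPM. Dashed lines are the medians of all tested genes, at -0.00, 0.07 and -0.29. All 10 genes lie above the dashed line of their own scaling. Each scaling shifts the genes and their line nearly alike, so these comparisons are not independent. As TPM 6 genes (Bcat2, Bckdhb, Bckdk, Ivd, Mccc1 and Pcca) lie below 0.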

How the data were processed

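RNA was from TA muscle of 3 WT control and 2 skmNrip1-/- mice, grouped by their labels. The authors quantified reads with Salmon and deposited FPKM per gene and library, with a DESeq2 log2 fold change and adjusted p-value that were not used here (submitters' processing notes: Salmon 1.10.2, DESeq2 1.44.0). How the FPKM were computed is not given in the sources used here. The median-of-ratios size factor, a library's median ratio to the geometric mean of each gene, was 1.00 in every library. By that measure the deposited values were already level between libraries. Rescaling by it left the median log2 fold change of the BCAA genes at 0.24.

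Genes averaging 0.5 FPKM or more entered limma 3.58.1 (R 4.3.3; lmFit, eBayes with trend) on log2(FPKM + 0.1), without covariates, with Benjamini-Hochberg adjustment over 12148 genes, and the script was tested on simulated data. Log2 fold changes are on the log2(FPKM + 0.1) scale, which understates changes of low genes, and are group differences as labelled. Called genes had a fold change reaching 1.2 and an adjusted p not exceeding 0.05. Within-library ratios were compared by exact permutation (scipy 1.17.1, Python 3.11.15). Positions came from GENCODE M21, which held 16996 of 17015 gene IDs. Alternatives changed the pseudocount, minimum, scaling, threshold or eBayes settings, added a replicate block, or left out a library.

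The named genes were the 10 members, complex partners, the extremes of each comparison list, and kinases and phosphatases of the sister complexes. Echs1 and Slc25a44 were added after their values were seen. The members and lists were chosen with earlier results of these data known.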

Additional observations from a re-analysis of the deposited data

How the results depend on the processing

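None of the 10 BCAA genes was called in limma under any of 17 alternatives, and their smallest adjusted p ranged from 0.131 to 0.656 over the alternative fits. After TPM rescaling, which set the median of all genes to -0.29, the median log2 fold change of the BCAA genes was -0.063 and that of the other pathway genes 0.013, and Bcat2 (-0.071), Bckdhb (-0.13), Bckdk (-0.065), Ivd (-0.16), Mccc1 (-0.060) and Pcca (-0.21) turned below 0. Under that scaling 1.30% of all genes were higher at an unadjusted p of 0.05 or less, and the share lower was not counted. At that p were 0 BCAA genes and 2 other pathway genes, both lower. With a fixed sum over nuclear-encoded genes, an alternative chosen after seeing the data, these counts were 5 and 11, all higher, beside 6.68% of all genes, and the medians were 0.31 and 0.39. The count among the other pathway genes was 6 with eBayes without the trend and 6 with the replicate number as a block, beside 10 in the reported fit. The block gave 4 BCAA genes, Ppm1k among them (unadjusted p = 0.0135 in limma), and changed no call. WT control replicate 3 had no skmNrip1-/- library of its number. The log2 fold changes of the BCAA genes with the block therefore equalled those without that library.

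The replicate numbers mark different mice, and same-numbered libraries correlated at 0.06 and 0.10 in their deviations from the group means, with 2 pairs. Leaving out a library gave 2 to 4 BCAA genes and 2 to 10 other pathway genes at that p, with 6 without WT control replicate 3, 2 without skmNrip1-/- replicate 1 and 5 without skmNrip1-/- replicate 2. The log2 difference of Bckdk to Ppm1k ranged from -0.95 to 0.30, turning above 0 without skmNrip1-/- replicate 2. That of Dbt to Bckdha, 0.01 as reported, ranged from -0.15 to 0.13, and was -0.017 with a pseudocount of 1. The cause of these changes was not tested. With 3 against 2 libraries, p-values measure only the spread between these mice, and depth is unknown.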

Other observations

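Mccc1 and Pcca carry biotin, as do few other mammalian enzymes. Of 9 listed genes of biotin enzymes and biotin handling, 8 were tested, none was called (limma), and 2 were higher at an unadjusted p of 0.05 or less, Mccc2 and Btd, beside 6.57% of all tested genes. Btd, the biotinidase that frees biotin for reuse, was at 2.40, 2.14 and 2.30 FPKM in WT controls and at 2.82 and 3.49 FPKM in the libraries labelled skmNrip1-/-, a log2 fold change of 0.45 (SE 0.15, adjusted p = 0.334 in limma) that was 0.16 after TPM rescaling and 0.29 without skmNrip1-/- replicate 2. Both of these libraries lay above all WT controls. Acaca, the cytosolic acetyl-CoA carboxylase, was at 3.02, 3.84 and 4.41 FPKM in WT controls and at 3.43 and 4.05 FPKM in the libraries labelled skmNrip1-/-. These gave a log2 fold change of 0.00, which was -0.29 after TPM rescaling. The list's median was 0.21, which was -0.09 as TPM, and 4 of 8 did not overlap between groups, beside 30.2% of all tested genes in either direction. Pc was not analysed here.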
